A study of Mus musculus with 4 samples.

Results

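The integrin and cadherin genes on the array, 45 of 18193 genes with a probe set that carries a single symbol, were followed in differentiating C2C12 cells given inhibitors of the histone demethylase LSD1. The rule reads symbols, not signals, and gave 24 integrin alpha and beta chains and 21 numbered cadherins; the families themselves were picked with earlier results of these arrays known. C2C12 is a mouse myoblast line that stops dividing and fuses into myotubes when serum is lowered. Cells kept in 25 mM glucose and 10% fetal bovine serum were moved to 2% horse serum and treated with tranylcypromine (TC, 1 array), with S2101 (1 array), a compound named here by its code, or with vehicle (control, 2 arrays). RNA was taken after 48 h. The labels give no dose. Nothing in them says that the control arrays came from separate cultures, so the spread between the controls may be technical. The p-values rest on the spread among 4 arrays and on a prior spread estimated over all tested genes. The test of TC and S2101 together takes the 2 compounds as replicates, so its spread also holds any difference between them. All arrays share the line, medium and time, and in total RNA of a culture fewer cells of a type and less RNA per cell cannot be told apart.

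Integrins are paired alpha and beta chains that join matrix proteins or other cells outside to actin and signalling proteins inside. Classical cadherins bind cadherins of the neighbouring cell and are tied to actin through catenins. Laminin-binding alpha7 beta1 is the main integrin of mature muscle fibres, and M-cadherin (Cdh15) and N-cadherin (Cdh2) are known for holding myoblasts together before fusion. Besides the classical cadherins, the symbols took in Cdh13, Cdh16, Cdh17, Cdh23 and Cdh26, which lack the classical cadherin tail or structure.

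Signals are MAS5 intensities, with a 2% trimmed mean of 500 on each array, and precision is limited by the number of arrays. Array pairs correlated between 0.987 and 0.990 (Pearson's r over probe sets, log2 scale). All 8 skeletal muscle markers, among them Myog, Des and Acta1, had signals of 1599 or more on every array. Their summed signal was 79416 with TC and 71783 with S2101, against 74610.0 and 75038 in control. Both inhibitor arrays were above both controls for Des and below both for Myh3, and the groups overlapped for the other markers. Neither Des nor Myh3 passed the test described below (adjusted p = 0.230 and 0.190, limma). Of the 45 genes, 14 had a mean signal over the 4 arrays at or above the median gene (178.8) and entered the test over 9097 genes. The filter uses all arrays and no group.

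The tests found that 4 of the 14 genes rose with the inhibitors, Itgb5, Itgb8, Cdh15 and Itga7, that 2 fell, Cdh11 and Itgb1, and that 8 did not pass (limma, Benjamini-Hochberg at 0.05, TC and S2101 together against both controls). All 6 changes were below 1.5-fold in mean signal. Only Itgb5 also passed when all 18193 genes were fitted without the filter, where 1.46% passed, and when the variance was not modelled with intensity. Over all genes tested, 8.01% passed, 4.28% higher and 3.74% lower, and 10.1% of genes with mean signals at or above the 75th percentile passed. By that split, 10 of the 14 genes were in the brighter class, with all 6 of the calls. The median log2 difference of the 14 genes was 0.08, beside 0.01 over all genes. Both inhibitor arrays lay above both controls for 7 of the 14 genes and below both for 3, where 27.6% and 23.4% of all genes did so.

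**Figure D1:**
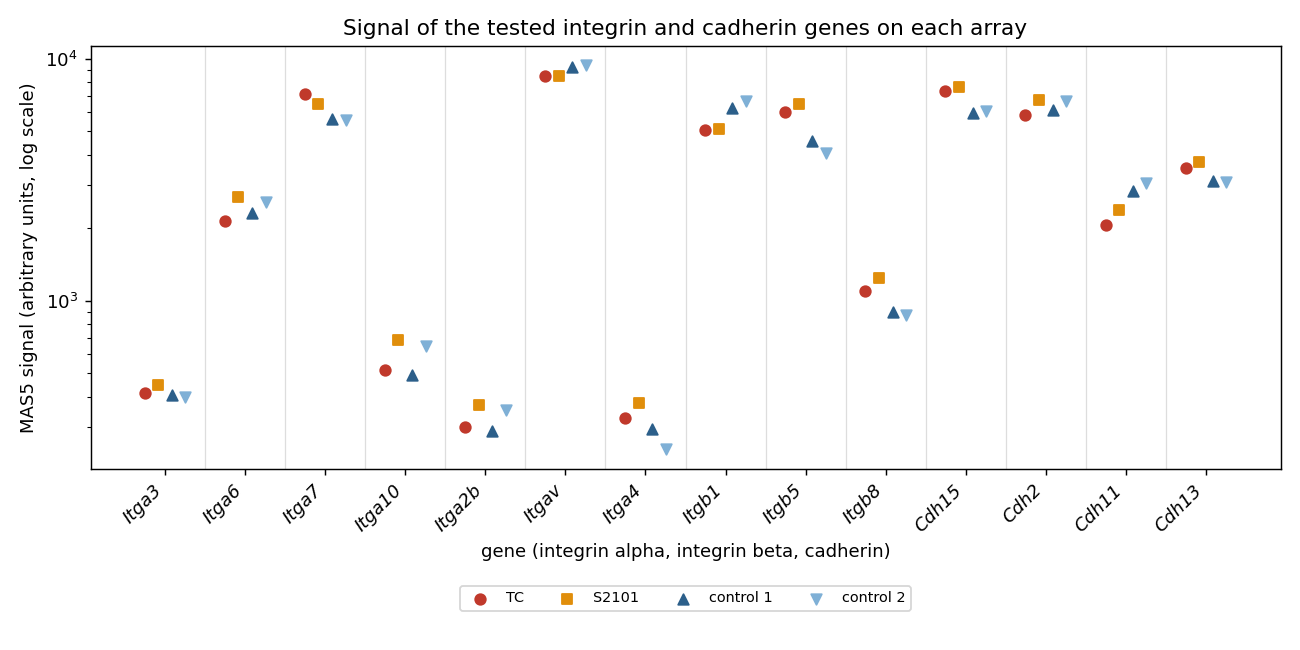
MAS5 signal (vertical axis, log scale) of the 14 tested integrin and cadherin genes, with 1 point per array: TC, S2101, control 1 and control 2 from left to right within each gene. The inhibitor points lie above both control points for Itgb5, Itgb8, Cdh15 and Itga7 and below both for Itgb1 and Cdh11; probe sets differ in brightness, so heights are compared only within a gene.

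Promoter windows of the genes that passed are shown because these genes moved in opposite directions in the same cells. RefSeq (GRCm38.p6) windows of 250 bases before and 50 after the gene start were at hand for 28 of the 45 genes and for 4 of the 6 that passed, Itgb5 (chr16:33829415-33829714, plus strand), Itgb8 (chr12:119238227-119238526, minus strand), Cdh15 (chr8:122848124-122848423, plus strand) and Itgb1 (chr8:128685404-128685703, plus strand). The others are Itga7 and Cdh11. Capitals mark 3 motifs searched on both strands: CAGCTG, an E-box bound by myogenic factors, CATTCC, the MCAT element bound by TEAD factors, and GGGCGG, the GC box bound by Sp1 and related factors.
Itgb5: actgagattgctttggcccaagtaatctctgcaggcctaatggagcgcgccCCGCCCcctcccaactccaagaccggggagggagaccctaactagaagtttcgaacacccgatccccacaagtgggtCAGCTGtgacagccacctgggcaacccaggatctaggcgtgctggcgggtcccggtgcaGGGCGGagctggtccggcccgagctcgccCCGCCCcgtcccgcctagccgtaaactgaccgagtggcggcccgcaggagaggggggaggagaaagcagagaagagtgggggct
Itgb8: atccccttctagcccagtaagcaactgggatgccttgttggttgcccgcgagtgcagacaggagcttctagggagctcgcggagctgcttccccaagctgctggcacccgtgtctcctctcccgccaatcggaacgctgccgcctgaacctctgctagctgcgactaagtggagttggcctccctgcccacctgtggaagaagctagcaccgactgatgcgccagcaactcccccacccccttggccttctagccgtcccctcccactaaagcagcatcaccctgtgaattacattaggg
Cdh15: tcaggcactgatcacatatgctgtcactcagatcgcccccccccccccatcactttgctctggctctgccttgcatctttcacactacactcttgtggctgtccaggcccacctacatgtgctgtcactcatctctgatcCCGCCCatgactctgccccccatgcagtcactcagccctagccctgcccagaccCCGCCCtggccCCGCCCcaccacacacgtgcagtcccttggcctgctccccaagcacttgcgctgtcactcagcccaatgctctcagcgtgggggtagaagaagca
Itgb1: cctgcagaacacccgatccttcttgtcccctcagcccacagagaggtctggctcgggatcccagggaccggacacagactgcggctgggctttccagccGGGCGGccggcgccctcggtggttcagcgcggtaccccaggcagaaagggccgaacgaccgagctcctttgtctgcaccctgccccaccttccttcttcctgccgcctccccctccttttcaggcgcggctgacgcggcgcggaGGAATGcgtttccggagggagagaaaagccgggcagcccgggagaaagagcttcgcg
CAGCTG was found 1 time in the Itgb5 window and was not in the other 3. Other spellings of the E-box were not searched. The MCAT element was found 1 time, in the Itgb1 window. GC boxes numbered 3 in Itgb5, 3 in Cdh15, 1 in Itgb1 and 0 in Itgb8. Among tested genes that did not pass, Itga2b and Itga4 also held CAGCTG and Itga10 the MCAT element. Itga3, Itga4 and Itgav held GC boxes. Among all 32851 windows of this length, 16.3% held CAGCTG, 14.7% CATTCC and 35.7% GGGCGG. None of the 3 motifs searched was shared by the 3 genes that rose and had a window. Other shared motifs were not looked for, and a match describes letters, not a bound site.

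Among the beta chains, which set the cytoplasmic signalling side of the pair, all 3 that were bright enough to test passed. Of all genes with mean signals at or above the 75th percentile, as these 3 had, 10.1% passed. Itgb5 and Itgb8 rose. Itgb1 fell in the probe set that represents it, while its other bright probe sets did not pass. Itgb5 pairs with alphav as a vitronectin receptor. Its representing probe set read 5993 with TC and 6521 with S2101, against 4572 and 4074 in control. Both inhibitor arrays were higher than both controls, the mean signal was 1.45-fold that of control, and the log2 difference was 0.53 ± 0.08 (SE; adjusted p = 0.00327, limma). Itgb5 also had 3 further probe sets above the filter, each higher on both inhibitor arrays, with log2 differences of 0.51, 0.43 and 0.49 (adjusted p = 0.00720, 0.00566 and 0.00337, limma). The IDs of the first 2 of these end in x_at, the Affymetrix mark for probes that may also bind other transcripts. It passed under all 16 alternative settings and probe sets tried, with log2 differences between 0.43 and 0.61 (adjusted p of 0.0429 at most, limma).

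Itgb8 also pairs with alphav and is known for activating latent TGF-beta. Its 1 probe set read 1100 with TC and 1245 with S2101, against 898 and 872 in control. The groups did not overlap, and the log2 difference was 0.38 ± 0.10 (adjusted p = 0.0388, limma). Without control 1 the adjusted p was 0.0770, without control 2 it was 0.132 and without S2101 it was 0.135 (limma), with log2 differences of 0.41, 0.36 and 0.30. Itgav, the alpha chain that both beta chains use, had 8441 with TC and 8485 with S2101, against 9243 and 9397 in control. Its inhibitor arrays were both lower, with a log2 difference of -0.14 ± 0.06 short of the threshold (adjusted p = 0.233, limma).

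Itgb1, the common partner of most alpha chains, fell in the probe set that represents it. That probe set gave 5092 with TC and 5120.3 with S2101, against 6267 and 6655 in control, and both inhibitor arrays were lower. The log2 difference was -0.34 ± 0.07 (adjusted p = 0.0141, limma). Neither of the other probe sets of Itgb1 above the filter passed. The first of them gave 4017 with TC and 3825 with S2101, against 3673 and 3710 in control, a log2 difference of 0.09 ± 0.07 in the opposite direction (adjusted p = 0.534, limma). The second gave 724 with TC and 755 with S2101, against 802 and 829 in control, a log2 difference of -0.13 ± 0.10 (adjusted p = 0.469, limma). Averaged over all its probe sets, Itgb1 stood at -0.18 (adjusted p = 0.385, limma), and without control 2 the call ended (-0.29, adjusted p = 0.142, limma). The call for Itgb1 thus rests on 1 of 3 bright probe sets.

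**Figure D2:**
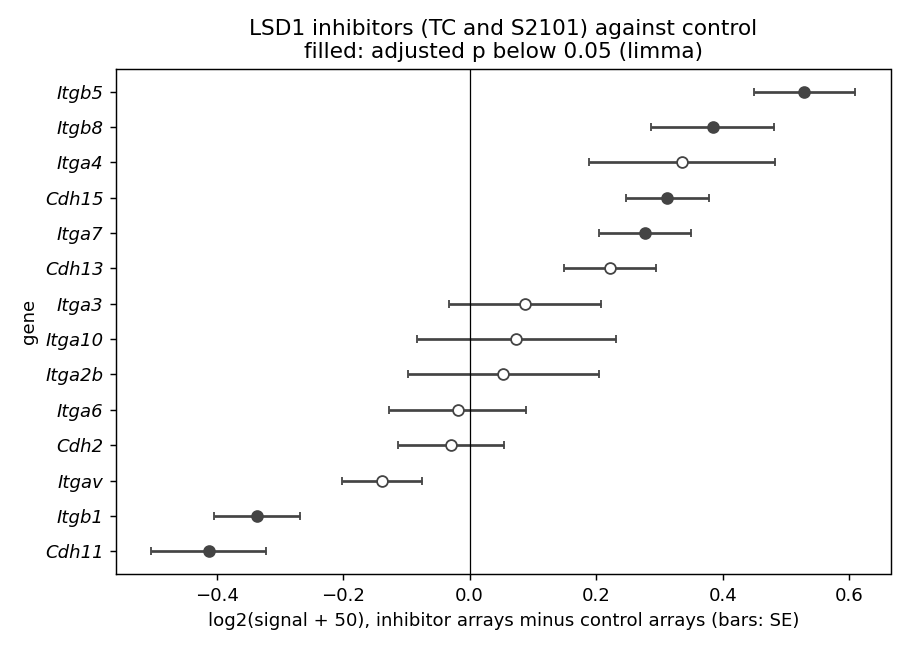
Difference in log2(signal + 50) between the inhibitor arrays (TC and S2101, n = 2) and the control arrays (n = 2) for each tested gene, with bars for the SE; filled points have an adjusted p below 0.05 (limma). Itgb5 at 0.53 and Cdh11 at -0.41 are the ends of the range.

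Of the alpha chains, Itga7 alone passed. Itga7 encodes the laminin receptor chain of differentiated muscle, found at the junctions between fibre and tendon. Its 1 probe set read 7152 with TC and 6462 with S2101, against 5618 and 5588 in control. The controls differed by 0.01 on the log2 scale, both inhibitor arrays were higher, and the log2 difference was 0.28 ± 0.07 (adjusted p = 0.0457, limma). This value lies close to the threshold, and the call ended without control 1 (0.28, adjusted p = 0.162), control 2 (0.27, 0.188) or TC (0.20, 0.134, limma).

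The other laminin receptor chains did not pass. Itga6 gave 2130.0 with TC and 2676 with S2101, against 2296 and 2549 in control, so that TC was the lowest and S2101 the highest of the 4 arrays. Its log2 difference was -0.02 ± 0.11 (adjusted p = 0.944, limma), and its second bright probe set stood at 0.07. Itga3 gave 415 with TC and 448 with S2101, against 407 and 398 in control, a log2 difference of 0.09 ± 0.12 (adjusted p = 0.730, limma).

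Itga4, whose beta1 dimer binds Vcam1 and fibronectin, gave 326 with TC and 376 with S2101, against 294 and 243 in control. Its inhibitor arrays were both higher, but the log2 difference, 0.34 ± 0.15, missed the threshold (adjusted p = 0.211, limma). Averaged with 4 dimmer probe sets of the gene it was -0.03. The collagen receptor chain Itga10 gave 519 with TC and 686 with S2101, against 490.3 and 650 in control, a log2 difference of 0.07 ± 0.16 (adjusted p = 0.838, limma). Itga2b, the platelet fibrinogen receptor chain, gave 301 with TC and 369 with S2101, against 289 and 353 in control, a log2 difference of 0.05 ± 0.15 (adjusted p = 0.882, limma). In both genes TC was close to control 1 and S2101 to control 2, and the gap between the controls (-0.37 and -0.25 on the log2 scale, control 1 minus control 2) was larger than the difference between the groups. Of 4 platelet markers, Gp1bb was above the filter, and Pf4, Gp9 and Ppbp had mean signals of 52.1, 4.13 and 12.7. The 4 summed to 250.0 with TC and 258 with S2101, against 274 and 279.7 in control, and their part in the Itga2b signal was not tested.

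Among the cadherins, 1 of 4 tested genes rose and 1 fell, where 4.28% and 3.74% of all genes did. Cdh15, the M-cadherin of muscle precursors, gave 7351 with TC and 7641 with S2101, against 5962 and 6087 in control. The groups did not overlap, and the log2 difference was 0.31 ± 0.07 (adjusted p = 0.0171, limma), 1.24-fold in mean signal. Its call ended without control 1 (0.30, adjusted p = 0.116) or control 2 (0.33, 0.0802, limma), while the size stayed near 0.3.

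Cdh11, a type II cadherin known from mesenchymal cells and osteoblasts, gave 2045 with TC and 2373 with S2101, against 2829 and 3072 in control. Both inhibitor arrays were lower, TC more so, and the log2 difference was -0.41 ± 0.09 (adjusted p = 0.0207, limma). Its other bright probe set gave 203 with TC and 234 with S2101, against 316 and 329 in control, a log2 difference of -0.47 ± 0.14 in the same direction that did not pass (adjusted p = 0.0759, limma). The call also ended without control 2 (-0.35, adjusted p = 0.107) or TC (-0.31, 0.0703, limma).

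Cdh2, N-cadherin, overlapped between the groups. It gave 5853 with TC and 6726 with S2101, against 6111 and 6706 in control, a log2 difference of -0.03 ± 0.08 (adjusted p = 0.885, limma). The 95% interval of the difference ran from -0.22 to 0.16. Cdh13, T-cadherin, is anchored by lipid and has no cytoplasmic tail. It gave 3523 with TC and 3739 with S2101, against 3109 and 3098 in control. Both inhibitor arrays were higher, yet the log2 difference, 0.22 ± 0.07, missed the threshold (adjusted p = 0.0963, limma). Of its other bright probe sets, 1 stood at 0.18 without overlap and 1 at 0.06 with overlap.

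**Figure D3:**
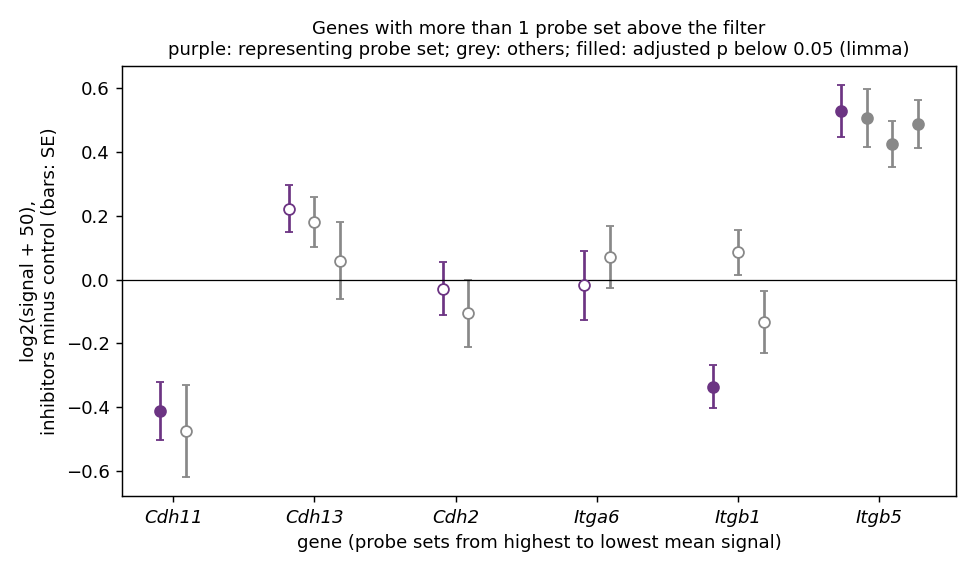
Difference in log2(signal + 50), inhibitors minus control, for the 6 genes with more than 1 probe set above the filter; bars are SE, purple marks the probe set that represents the gene and filled points have an adjusted p below 0.05 (limma). All 4 probe sets of Itgb5 lie between 0.43 and 0.53, both of Cdh11 are below 0, and the 3 of Itgb1 spread from -0.34 to 0.09.

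The other 31 of the 45 genes, 14 integrins and 17 cadherins, were below the filter, with signals between 0.530 and 261 on single arrays. Mean signals were under 50 for 24 of them. Inhibitor and control arrays overlapped for 22. Both inhibitor arrays were higher for 5 (Itgb2, Itgb4, Cdh1, Cdh17 and Cdh19) and lower for 4 (Itga1, Itga8, Itgam and Cdh23). Among all 9096 genes below the filter, 14.4% were higher and 20.9% lower in this way, and 2.81% were higher with a log2 difference of at least 0.5, as were 3 of these 31 (Itgb2, Cdh1 and Cdh17). This class held the alpha chains Itga1, Itga2, Itga5, Itga8 and Itga9, the leukocyte chains Itgae, Itgal, Itgam and Itgax, the beta chains Itgb2, Itgb3, Itgb4, Itgb6 and Itgb7, and the type I cadherins Cdh1, Cdh3 and Cdh4. It also held 10 type II cadherins (Cdh5 to Cdh10, Cdh18 to Cdh20 and Cdh22) and Cdh16, Cdh17, Cdh23 and Cdh26. Itga5, the fibronectin receptor chain, had 136 with TC and 111 with S2101, against 138 and 128 in control, and overlapped. Cdh5, the endothelial cadherin, stayed between 1.66 and 27.4, and overlapped. None of 5 endothelial markers was above the filter. Mean signals were 70.0 for Tek, 48.8 for Kdr, 12.8 for Emcn, 5.18 for Pecam1 and 3.92 for Tie1. Both inhibitor arrays were above both controls for Tek, Emcn and Tie1, and the groups overlapped for Kdr and Pecam1. The 5 summed to 141 with TC and 194 with S2101, against 139.6 and 88.0 in control.

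Itgb2, the beta chain of leukocyte integrins, was the brightest integrin or cadherin gene below the filter, at a mean of 167. It gave 237 with TC and 261 with S2101, against 119 and 51.1 in control. Both inhibitor arrays were higher, by 1.19 on the log2 scale, with controls that differed by more than 2-fold. In the fit over all 18193 genes, Itgb2 did not pass (adjusted p = 0.125, limma). The chains it pairs with, Itgal, Itgam and Itgax, had 26.2, 15.5 and 33.8 with TC and 28.2, 1.65 and 33.5 with S2101, against at most 36.4 in control. The pan-leukocyte marker Ptprc was at 16.4 with TC and 0.659 with S2101, against 15.5 and 9.93 in control, and the summed signal of 6 leukocyte markers was 539 with TC and 725 with S2101, against 671 and 680.2 in control. Of these 6, Cd14 alone was above the filter, at a mean of 385. It gave 354 with TC and 438 with S2101, against 338 and 409 in control. Cd14 and Cd68 were highest with S2101, as Itgb2 was, and Ptprc, Csf1r, Cd3e and Adgre1 were not. Unlike for Itgb2, the groups overlapped for all of these markers except Cd3e, for which both inhibitor arrays were below both controls. The part of such cells in the Itgb2 signal was not tested.

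Cdh1, E-cadherin of epithelia, gave 160 with TC and 131 with S2101, against 65.8 and 79.0 in control. Both inhibitor arrays were higher, by 0.67 on the log2 scale (adjusted p = 0.225 without the filter, limma). None of 5 epithelial markers was above the filter, and they summed to 291 with TC and 452 with S2101, against 426 and 366 in control. These markers did not move together. Epcam gave 95.2 with TC and 226 with S2101, against 192 and 190.2 in control, so that TC was its lowest array. Krt14 gave 99.4 with TC and 77.3 with S2101, against 98.7 and 80.0 in control. TC was its highest array, as for Cdh1, though close to the first control. Unlike for Cdh1, the groups overlapped for all 5 epithelial markers. Esrp1 was also lowest with TC, Krt5 and Cldn4 were neither, and the part of such cells in the Cdh1 signal was not tested. In the other direction, Cdh23, a cadherin of hair cell tip links, gave 25.9 with TC and 24.6 with S2101, against 95.4 and 48.9 in control (adjusted p = 0.283 without the filter, limma).

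TC and S2101 were also set against the controls separately. These comparisons share the control arrays, each rests on 1 array of the compound, and the fit takes its spread from the control pair and from a prior over genes. With TC, 3 genes rose (Itgb5, Itga7 and Cdh15) and 2 fell (Cdh11 and Itgb1), where 4.36% and 3.81% of all genes did. With S2101, 3 rose (Itgb5, Itgb8 and Cdh15) and 1 fell (Itgb1), where 3.37% and 3.33% of all genes did. The median log2 difference of the 14 genes was -0.02 with TC and 0.19 with S2101, beside 0.02 and 0.01 over all genes. Itgb5 stood at 0.47 ± 0.09 with TC and 0.59 ± 0.09 with S2101, and Cdh15 at 0.29 ± 0.07 with TC and 0.34 ± 0.07 with S2101. Itgb1 stood at -0.34 ± 0.07 with TC and -0.33 ± 0.07 with S2101. All 9 of these calls ended without the filter or without the intensity trend (limma). Calls made for 1 compound only were Itga7 (0.35 with TC, adjusted p = 0.0169, and 0.20 with S2101, 0.132, limma), Cdh11 (-0.52 with TC, 0.00777, and -0.31 with S2101, 0.0736) and Itgb8 (0.30 with TC, 0.128, and 0.47 with S2101, 0.0297).

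In the direct comparison of TC with S2101, made for each of the 14 genes, 0 passed, where 0.033% of all genes did (limma, adjusted over all genes). Without adjustment, 792 genes had a p under 0.05, of the 14 only Itga6 (log2 difference TC minus S2101 of -0.32 ± 0.11, adjusted p = 0.478, limma). The 95% intervals of TC minus S2101 were -0.04 to 0.33 for Itga7, -0.44 to 0.02 for Cdh11, -0.45 to 0.11 for Itgb8 and -0.34 to 0.10 for Itgb5. With these intervals, and with doses not stated, the values do not show that the compounds act alike or apart on these genes.

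**Figure D4:**
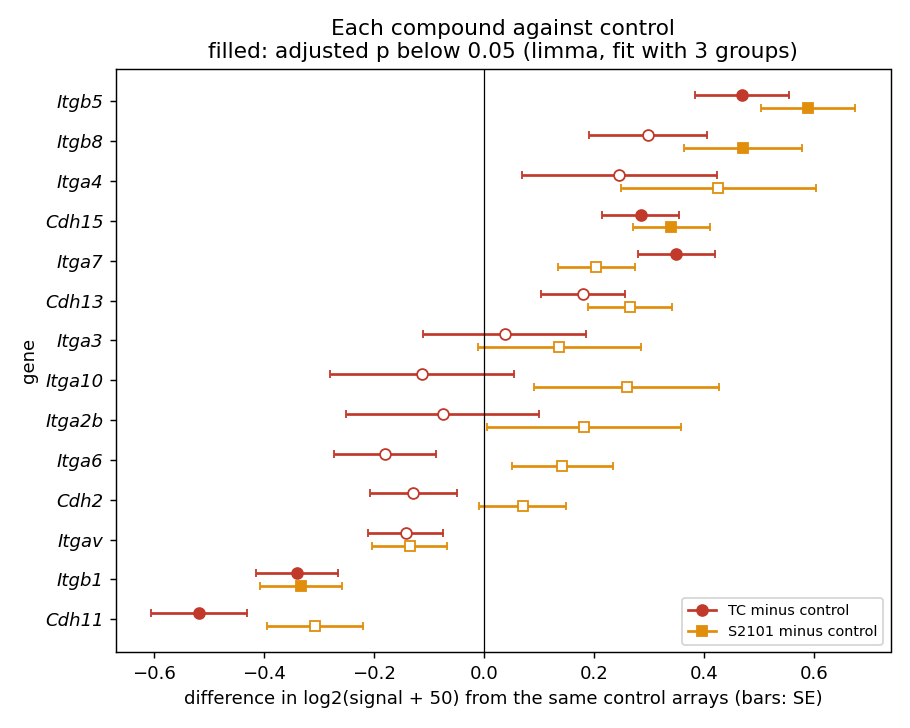
Difference in log2(signal + 50) of TC (circles) and S2101 (squares) from the same 2 control arrays for each tested gene; bars are SE and filled symbols have an adjusted p below 0.05 (limma, fit with 3 groups). Itgb5, Cdh15 and Itgb1 are filled for both compounds, Itga7 and Cdh11 for TC and Itgb8 for S2101.

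Proteins that work with integrins and cadherins were read from 5 lists, with 8.01% of all genes as the background. Of 21 tested integrin adaptors, 1 rose, 2 fell and the other 18 missed the threshold, and the list had a median log2 difference of -0.08. The kinase Src gave 405 with TC and 397 with S2101, against 206 and 272 in control (0.65 ± 0.15, adjusted p = 0.0258, limma). The actin cross-linker Flna gave 3771 with TC and 3850.2 with S2101, against 4852 and 4813 in control (-0.34 ± 0.07, adjusted p = 0.0134, limma). Melusin, Itgb1bp2, which binds the beta1 tail in striated muscle, gave 1114 with TC and 976 with S2101, against 1356 and 1365 in control (-0.37 ± 0.09, adjusted p = 0.0418, limma). Leaving out control 1 ended all of these calls (adjusted p = 0.123, 0.0878 and 0.108, limma). Those of Flna and Itgb1bp2 also ended without control 2 (0.0785 and 0.131), those of Src and Itgb1bp2 without S2101 (0.0663 and 0.124), and that of Src without TC (0.0932). Averaged over its probe sets Src stood at 0.19 (adjusted p = 0.406, limma). Of the 21 adaptors, both inhibitor arrays were below both controls for 10 and above both for 3, beside the 23.4% and 27.6% of all tested genes.

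Of 8 tested catenins and cadherin adaptors, afadin (Afdn), which links nectins to actin, rose and the other 7 missed the threshold, and the median was 0.09. Afdn gave 1616 with TC and 1433 with S2101, against 1162 and 1054 in control (0.44 ± 0.10, adjusted p = 0.0199, limma). It did not pass without control 2 (0.37, adjusted p = 0.1002) or TC (0.36, 0.0876). Averaging its probe sets also ended the call (0.25, adjusted p = 0.233, limma).

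Among 9 tested co-receptors of myoblast adhesion, 2 rose and the other 7 missed the threshold, and the median was 0.11. Neo1, neogenin, gave 2207 with TC and 2199 with S2101, against 1365 and 1402 in control. Its log2 difference was 0.65 ± 0.08 (adjusted p = 9.80e-04, limma), and its other bright probe set also passed (0.53 ± 0.11, adjusted p = 0.0155, limma). Averaged with dimmer probe sets Neo1 stood at 0.34 (adjusted p = 0.103, limma). Cdon, a cell surface partner of cadherins in myoblasts, gave 6244 with TC and 6543 with S2101, against 5223 and 5021 in control (0.32 ± 0.07, adjusted p = 0.0189, limma). Without control 1 or control 2 Cdon did not pass (0.35 and 0.29, adjusted p = 0.0628 and 0.149, limma), and averaged over its probe sets it stood at 0.04 (adjusted p = 0.829).

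Integrin ligands gave 1 call. Of 6 tested laminin chains none passed (limma), 2 had an unadjusted p under 0.05, where 22.3% of all genes did, and the 2 with the largest log2 differences were Lama5 (0.32 ± 0.10, adjusted p = 0.0911, limma) and Lama2, the main chain of the muscle basement membrane (0.23 ± 0.09, adjusted p = 0.178, limma). Of 7 other tested ligands, nidogen 1 (Nid1), which joins laminin to collagen IV, fell and the other 6 missed the threshold, and the median was -0.02. Nid1 gave 5740.2 with TC and 6307 with S2101, against 7618 and 7653 in control (-0.34 ± 0.07, adjusted p = 0.0161, limma). Its other bright probe set overlapped between the groups (-0.20 ± 0.12, adjusted p = 0.390, limma), and its call ended without control 1 or control 2 (adjusted p = 0.0655 and 0.0774, limma) and on averaging (-0.19, 0.272). Among the 7 partners named as changed, Neo1 alone passed without the filter and without the intensity trend.

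**Figure D5:**
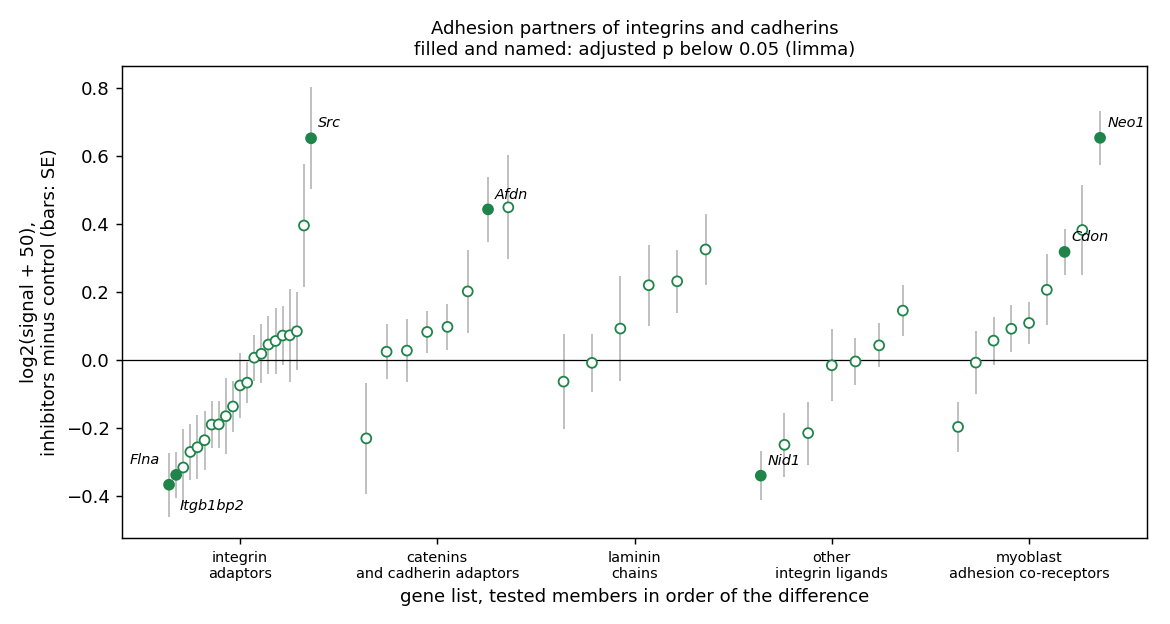
Difference in log2(signal + 50), inhibitors minus control, of the tested members of 5 lists of adhesion partners, in order of the difference within each list; bars are SE and filled, named points have an adjusted p below 0.05 (limma). Neo1, Src, Afdn and Cdon are filled above 0, and Itgb1bp2, Flna and Nid1 below 0.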

How the data were processed

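The authors deposited linear MAS5 signal intensity values, 1 for each probe set, and the submitters' processing notes name MAS5 and Affymetrix Expression Console. Versions and scan batches are not stated in the labels. The 2% trimmed mean of the deposited values was 500 on each of the 4 arrays. Of 45101 probe sets, 34945 had 1 gene symbol in the platform annotation, 932 several, 9160 none and 64 were array controls. The brightest probe set on average stood for each of 18193 genes. Genes with a mean signal of at least 178.8, the median gene, were tested on log2(signal + 50). A fold change on that scale understates the change of dim genes.

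Differences were tested with limma 3.58.1 (R 4.3.3), using lmFit and eBayes with the trend option, and p-values were adjusted over all 9097 genes by Benjamini-Hochberg. One fit set TC and S2101 together against both control arrays (2 residual degrees of freedom, prior 8.08). The other had 3 groups (1 residual degree of freedom, prior 8.37), and takes each compound's single array to vary as the control pair does. The fits were tested on simulated data. The genes and lists were chosen with earlier results of these data known. Genes of other lists are named where they passed, or else as the 2 largest differences. Alternatives covered the offset, filter, averaging of probe sets, variance trend, quantile normalization, a block on the numbers in the sample descriptions and leaving out each array. Itga11, Itgad, Cdh12 and Cdh24 were not analysed here.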

Additional observations from a re-analysis of the deposited data

Results flagged for a closer look

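Among the genes too dim to be tested, 3 had both inhibitor arrays above both controls with a log2 difference of at least 0.5, that is 3 of 31, where 256 of all 9096 genes below the filter (2.81%) did. Itgb2 differed by 1.19, with signals of 237 with TC and 261 with S2101, against 119 and 51.1 in control. Cdh1 differed by 0.67, with 160 with TC and 131 with S2101, against 65.8 and 79.0 in control. Cdh17 differed by 0.61, with 17.6 with TC and 44.0 with S2101, against 1.98 and 2.66 in control, all below the offset of 50. Whether these probe sets were above background was not tested, and none of the 3 passed when all genes were fitted without the filter (limma adjusted p = 0.125, 0.225 and 0.230).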

How the results depend on the processing

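The number of the 14 genes past the inhibitor test was 6 (4 higher, 2 lower). It stayed within 1.5-fold with offsets of 2% and 50% of the trimmed mean, a filter at the 75th percentile, averaged probe sets (which left 1 lower), quantile normalization and 3 groups. Without the filter on dim genes, and without an intensity trend, it was 1 (1 higher, 0 lower), Itgb5. Leaving out 1 array gave 1 to 5 calls, 1 to 3 higher and 0 to 2 lower. Calls over all genes numbered 729, with 266 without the filter, 457 at the 75th percentile, 478 with averaged probe sets and 423 without a trend. A block on the numbers in the sample descriptions gave 1223 and the same count of 6. Among the inhibitor arrays those numbers tell TC from S2101, and they did not pair the arrays (correlation of deviations 0.065). For TC the count of 5 (3 higher, 2 lower) was 0 (0 and 0) without the filter and without a trend, with 12 and 83 calls over all genes in place of 744, and averaging left 1 lower. For S2101 the count of 4 (3 higher, 1 lower) was 0 (0 and 0) in the same fits, with 8 and 112 calls over all genes in place of 610, and 0 were lower on averaging and 2 with quantile normalization. Between TC and S2101, 3 genes were called, 0 without the filter or a trend, 22 on averaging and 7 with quantile normalization. The causes were not tested.

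Direction changed for Itgb1 in another probe set (0.086) and for genes that had not passed. On averaging, Itga6 stood at 0.027 and Itga4 at -0.032, and against control with S2101 alone Itga4 stood at -0.097 and Cdh2 at -0.015. Itga4 stood at 0.13 for TC minus S2101. Leaving out 1 array gave -0.18 to 0.14 for Itga6, -0.11 to 0.26 for Itga10, -0.075 to 0.18 for Itga2b and -0.13 to 0.071 for Cdh2. The other probe set of Itga6 stood at 0.072. Cdh13 passed in the fit with 3 groups (adjusted p = 0.0494, limma), and for S2101 Cdh13 and Cdh11 passed with quantile normalization (0.0462 and 0.0430).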
